A study of Saccharomyces cerevisiae with 6 samples.

Results

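DNA synthesis in *pol2-REL* cells between 30 and 40 min after release from G1 was followed with the *pol2-REL* library of each time and no G1 library. A genome window belonged to the set when it held over 600 reads at both times, which was the case for 11575 of the 12070 non-overlapping 1 kb windows. Of the 495 windows left out, 236 had no reads at either time and 200 lay within 20 kb of a chromosome end. In each window the read count at 40 min was divided by that at 30 min, and the ratio was scaled so that the median window stands at 1.

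The series profiled replication in budding yeast by whole-genome sequencing of wild-type and *pol2-REL* cultures, each in G1 and at 30 and 40 min of S phase, with 1 library for each of the 6 conditions. Both strains were labelled W303, by the methods W1588-4C, a *RAD5* variant of it, and carried a KAN-marked 3HA tag on the catalytic subunit of DNA polymerase ε, Pol2-3HA::KAN in the wild type and pol2-REL-3HA::KAN in the mutant, and 1 strain of each genotype is listed. In pol2-REL an arginine, a glutamate and a leucine of Pol2 are replaced by cysteine, lysine and phenylalanine. Both cultures were arrested with alpha factor and released with pronase at 24 °C, a temperature at which the mutant grows. Window counts carry no allele, so the genotype labels could not be checked. The time labels could: relative to the *pol2-REL* G1 library, the median window at early origins stood at 1.105 at 30 min and at 1.250 at 40 min. The SD of the ratio to G1 over windows was 0.101 and 0.145.

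Replication starts at origins, where the MCM helicase is loaded in G1 and activated in S phase, and a pair of forks then moves outwards from each. Origins differ in when they fire, and DNA polymerase ε both takes part in activating the helicase and synthesizes the leading strand. A replication profile therefore has its peaks at origins, with early origins as the tallest, and its valleys where converging forks meet. A ratio of 2 S phase libraries shows where reads were added between them: a high value at an origin's centre means that copies of the origin itself were still being made, whereas a high value on the shoulders means that DNA at a distance from it was being copied.

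Landmarks were placed with the 3 wild-type libraries only, so that no *pol2-REL* library took part. Early centres were the 134 maxima of the wild-type 30 min profile with a prominence of at least 0.1, prominence being the height of a maximum above the saddle to higher ground. Late peaks were the 108 maxima of the wild-type 40 min profile with a prominence of at least 0.05 that lay over 10 kb from every early centre. Both kinds are called origins below, although no origin annotation was used. Valleys were the 168 lowest points between neighbouring peaks that lay over 10 kb from both. Around each peak, windows within 2 kb were called the centre, those at 3 to 4 kb inner, those at 5 to 15 kb the shoulder and those beyond 15 kb far. The wild-type ratio of 40 over 30 min was computed in the same way in 11576 windows for comparison. It shares its libraries with the placing of the landmarks, whereas the *pol2-REL* ratio shares none.

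The *pol2-REL* libraries held 29987832 reads at 30 min and 32534281 at 40 min, and the median window held 2482 and 2674 reads. Counting error was 2.01% and 1.93% of these medians. The 4 other libraries held between 19156804 and 40161464 reads. With 1 library for each condition there was no replicate check and no test, and no p-value is given. Intervals are exact (Clopper-Pearson) 95% binomial intervals of the 40 min share of reads. They cover counting error only, since reads are not independent molecules, and they do not cover the difference between cultures. For the ratio of 2 classes the interval comes from the Poisson variance of the log counts. Windows, origins and chromosomes of 1 pair of libraries are not replicates.

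The ratio varied less along the genome in *pol2-REL* than in wild-type cells. The SD of the ratio over windows was 0.105 in *pol2-REL*, against a median counting SD of 0.0278, and 0.179 in wild type. The 5th and 95th percentiles were 0.886 and 1.23 in *pol2-REL* and 0.800 and 1.37 in wild type, which gives a span of 1.38-fold and 1.71-fold. In *pol2-REL*, 2382 windows were over 1.1, which is 20.6% of those compared, and 904 were under 0.9, which is 7.81%. In wild type, 3579 windows were over 1.1 (30.9%) and 3056 were under 0.9 (26.4%). Scaling to the median removes any increase common to the whole genome, so the level of the ratio does not say how much DNA was made. Its spread is smaller when less DNA is made in the same places. The narrower spread in *pol2-REL* therefore does not show that reads were added more evenly. The ratio is also relative to the DNA present at 30 min, so the same added amount gives a smaller ratio where more had been copied by then.

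Summed over each distance class, the highest *pol2-REL* ratio was at early centres. The 665 centre windows held 1862409 reads at 30 min and 2219186 at 40 min, a scaled ratio of 1.12 (95% interval 1.118 to 1.122). Of these windows 61.4% were over 1.1 and 0.301% under 0.9, against 20.6% and 7.81% of all windows. The inner windows stood at 1.118 (1.115 to 1.120) and the shoulders at 1.092 (1.090 to 1.093), with 57.0% and 43.8% of their windows over 1.1. Beyond 15 kb the ratio was 0.975 (0.974 to 0.976), and 9.26% of windows were over 1.1. The intervals of centre and inner windows overlap, and the ratio declined from there to the shoulders and the far windows.

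In wild-type cells the shoulders of early origins stood above the centres. Early centres stood at 1.12 (1.119 to 1.123), the inner windows at 1.155 and the shoulders at 1.159 (1.158 to 1.161), and far windows at 0.977. The level of the centres was thus 1.12 in both genotypes, while the shoulders stood at 1.092 in *pol2-REL* and at 1.159 in wild type. The shoulder-to-centre ratio was 0.975 in *pol2-REL* (0.973 to 0.977) and 1.034 in wild type (1.032 to 1.036). The gap between these values is wider than counting error, and its size against the difference between cultures cannot be told from 1 library per condition. With landmarks from the *pol2-REL* libraries, which was tried after seeing the data, the values were 0.995 and 1.060, so the mutant's decline was then smaller and the order of the genotypes was kept.

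Distance from the centre gave the same picture in finer steps. In *pol2-REL* the ratio was 1.12 at the early centre itself, was at its highest at 1 kb with 1.12, stood at 1.113 at 5 kb and 1.096 at 10 kb, and was below 1 from 20 kb. In wild type it was 1.11 at the centre, was highest at 8 kb with 1.18 (1.175 to 1.183), stood at 1.17 at 10 kb and was below 1 from 22 kb. The maximum over the value at the centre was 1.07 in wild type, against 1.00 in *pol2-REL*. A maximum away from the centre was thus seen in wild type. The average of all early centres in *pol2-REL* had none beyond counting error.

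**Figure D1:**
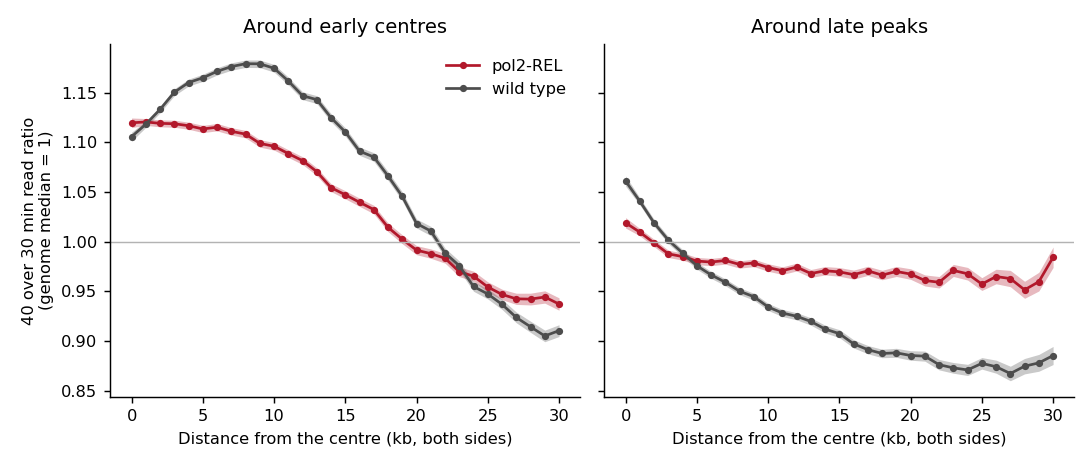
Scaled 40 over 30 min read ratio (genome median 1) against distance in kb from 134 early centres (left) and 108 late peaks (right), with both sides summed, in *pol2-REL* (red) and wild type (grey); bands are 95% counting intervals. Near early centres the *pol2-REL* line declines from 1.12 without a shoulder, while the wild-type line climbs from 1.11 to 1.18 at 8 kb; around late peaks both decline from the centre.

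The early centres differed among themselves. Their *pol2-REL* ratios ran from 0.923 to 1.40 with a median of 1.12, and 126 of 134 were over 1, 86 were over 1.1 and none was under 0.9. The shoulder was below the centre at 90 of the 134 in *pol2-REL*, at 65 of them by over 3 counting errors, and above it at 44, at 27 of them by over 3 counting errors. In wild type it was above the centre at 87, at 72 of them by over 3 counting errors, and below at 47, at 29 of them by over 3 counting errors. The early centre itself had the higher ratio in *pol2-REL* at 67 of the 134 origins, so neither genotype led at the centres.

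The shoulders differed with the prominence of the early centre in wild type. Early centres were split into 4 quartiles by their wild-type prominence at 30 min. Strongest and weakest below mean the highest and lowest prominence only. Prominence rests on a ratio to the wild-type G1 library. The median *pol2-REL* G1 over wild-type G1 ratio was 0.633, 0.734 and 0.651 on chromosomes I, III and VI, and 1.13 on XII. All early centres of chromosomes I, III and VI fell in the 2 weaker quartiles. The part of chromosome depth in the quartiles was not tested. In the strongest quartile the *pol2-REL* ratio was 1.14 at the centre and highest at 7 kb with 1.20, and in the next it was 1.13 at the centre and highest at 3 kb with 1.15. In the 2 weaker quartiles it was highest at the centre, with 1.12 and 1.08, and in the weakest it was first below 1 at 9 kb and within 0.01 of 1 from there to 13 kb. On average the origins of highest wild-type prominence therefore had a shoulder in the mutant too, and it was lower and nearer than in wild type. The wild-type ratio of that quartile went from 1.11 at the centre to 1.26 at 9 kb. The wild-type maximum lay at 9, 6 and 3 kb in the other quartiles, with 1.22, 1.18 and 1.102.

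Counts of single origins followed the same order. The *pol2-REL* shoulder was above its centre at 17 of 34 origins in the strongest quartile, at 15 of 34 in the next, at 8 of 33 in the third and at 4 of 33 in the weakest. The wild-type counts were 31, 27, 19 and 10. In the strongest quartile the *pol2-REL* shoulder was above the centre by over 3 counting errors at 14 origins and below it by as much at 12, against 27 and 0 in wild type. The median *pol2-REL* centre stood at 1.153, 1.129, 1.099 and 1.072 from the strongest to the weakest quartile. The 8 early centres under 1 in *pol2-REL* were of low wild-type prominence, 7 of the weakest quartile and 1 of the third. Of these, 5 were over 1 in wild type. The lowest, at chrIV:976001-977000, held 11711 reads at 30 min and 11506 at 40 min and stood at 0.923 (0.8998 to 0.9474), against 1.02 in wild type.

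**Figure D2:**
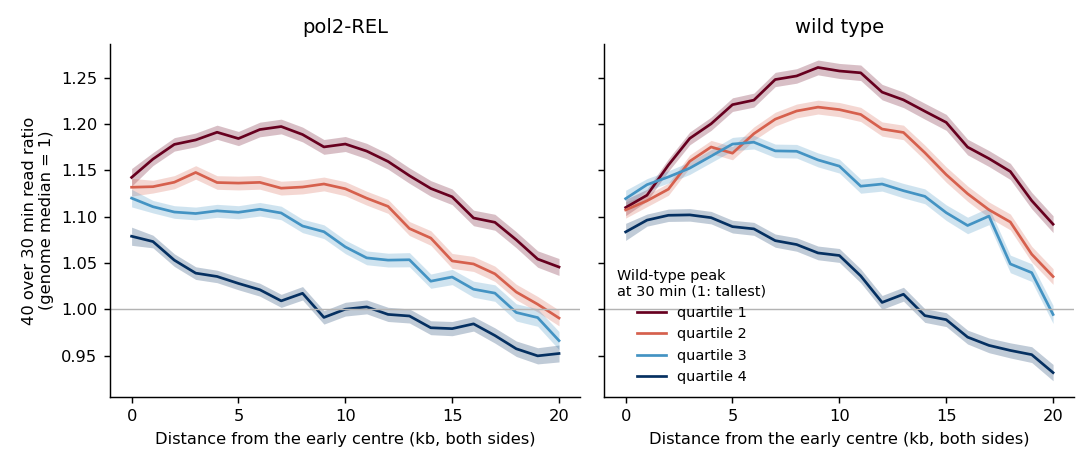
Scaled 40 over 30 min read ratio against distance in kb from early centres in *pol2-REL* (left) and wild type (right), for 4 quartiles of wild-type peak prominence at 30 min; bands are 95% counting intervals. In *pol2-REL* the strongest quartile peaks at 7 kb with 1.20 and the weakest at the centre with 1.08, whereas in wild type all 4 quartiles peak away from the centre.

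The lower shoulder was spread over the genome. Within single chromosomes, the shoulder-to-centre ratio was below 1 on 12 of the 16 chromosomes in *pol2-REL* and on 2 in wild type, and it was lower in *pol2-REL* on 16 of 16. The lowest *pol2-REL* values were 0.937 on chromosome XVI, with 11 early centres, and 0.940 on chromosome II, with 8, where wild type had 1.01 and 0.999. The *pol2-REL* value was above 1 on chromosomes I, III, VI and X, with 1.09, 1.01, 1.09 and 1.00. Chromosomes I and VI have 1 and 2 early centres, and wild type was at 1.13 and 1.14 there.

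The 5 early centres of largest wild-type prominence lie on chromosomes XII and IV (positions in sacCer2). At chrXII:513001-514000 the 5 centre windows of *pol2-REL* held 13930 reads at 30 min and 20691 at 40 min, and the ratio was 1.40 (1.37 to 1.43), the highest of all 134. At chrXII:412001-413000 the counts were 12485 and 18312 and the ratio was 1.38 (1.35 to 1.41). Wild type stood at 1.08 and 1.102 at these origins, so relative to each genotype's own median window the mutant centres were the higher ones. The shoulders were also high there in *pol2-REL*, at 1.35 and 1.32, against 1.20 and 1.22 in wild type.

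The other 3 were closer to the average. At chrXII:602001-603000 the *pol2-REL* ratio was 1.18 at the centre (14365 and 18089 reads) and 1.29 on the shoulders, so here the mutant had a clear shoulder. At chrIV:914001-915000 the centre was at 1.12 in *pol2-REL* (15161 and 18067 reads) and 1.13 in wild type, and the shoulders were at 1.24 and 1.34. At chrXII:744001-745000 the centre was at 1.21 (12885 and 16541 reads) and the shoulders at 1.12, where wild type had 1.28 and 1.32. The early centres of highest wild-type prominence thus included both shapes in the mutant.

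Some origins have no other early centre or late peak within 40 kb, so that no called peak lies near their shoulders. There were 44 such isolated early centres, and 35 had at least 8 windows with a value on each side. Over these the median centre was 1.12 and the median shoulder 1.07 in *pol2-REL*, and 1.04 and 1.11 in wild type. The shoulder was above the centre at 7 of the 35 in *pol2-REL* and at 24 in wild type. The shoulder was thus below the centre in *pol2-REL* and above it in wild type away from other called peaks too. The centres differed more here, since over all 134 early centres their medians were 1.12 in *pol2-REL* and 1.11 in wild type.

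The study examined whether the sister forks of an origin move unequally, and the isolated origins allow left and right to be compared. The median absolute log2 ratio of left over right shoulder was 0.034 in *pol2-REL*, where counting error alone has an SD of 0.017, and 0.040 in wild type. The sides differed by over 3 counting errors at 13 of 35 origins in *pol2-REL* and at 15 in wild type, and the largest absolute log2 ratio was 0.13 and 0.24. The left side was higher at 18 and the right at 17 in *pol2-REL*, and the same side was higher in both genotypes at 18 of 35. The difference between sides was larger in *pol2-REL* at 14 of the 35. In a population of cells, forks that lag on the left in some and on the right in others leave both shoulders equal, so unequal forks within single cells were not measured by these counts.

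**Figure D3:**
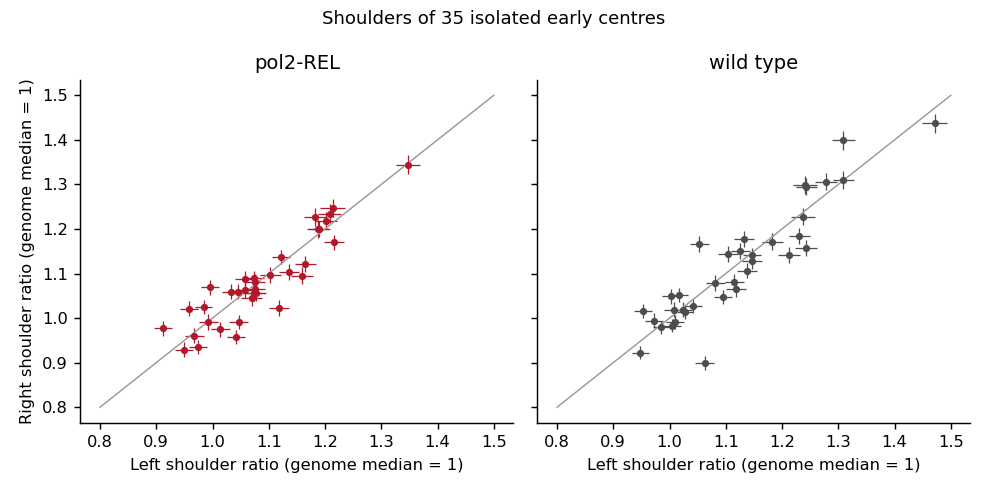
Left against right shoulder ratio (5 to 15 kb, genome median 1) of 35 isolated early centres in *pol2-REL* (left panel) and wild type (right panel); bars are 95% counting intervals and the line marks equal sides. Points lie on both sides of the line in both panels, and the largest absolute log2 difference is 0.13 in *pol2-REL* and 0.24 in wild type.

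Of the 3 most prominent isolated origins, the one at chrXII:513001-514000 is described above, and its *pol2-REL* shoulders were equal at 1.35 on the left and 1.34 on the right. At chrXIV:321001-322000 the *pol2-REL* centre held 14502 and 17808 reads, a ratio of 1.15 (1.13 to 1.18), and both shoulders were at 1.08. The wild-type centre was at 0.962 there, and relative to the median of chromosome XIV the values were 1.13 and 1.06, so that the difference in direction depends on the scaling. At chrIV:554001-555000 the *pol2-REL* centre was at 1.11 (15179 and 17897 reads), with shoulders at 1.18 on the left and 1.23 on the right, and wild type had 1.15, 1.31 and 1.40. The right side was the higher one in both genotypes at this origin.

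Late peaks gained about as much as the median window in *pol2-REL*. Their 535 centre windows held 1383946 reads at 30 min and 1483119 at 40 min, a ratio of 1.007 (1.005 to 1.009), and 7.48% of these windows were over 1.1, below the 20.6% of all windows. The late shoulders stood at 0.975 and far windows at 0.969. In wild type the late centres were at 1.036 (1.034 to 1.038), the shoulders at 0.941 and far windows at 0.896, and 28.0% of centre windows were over 1.1. The late centre was thus 1.032 times its shoulder in *pol2-REL* and 1.101 times in wild type. Late peaks are maxima of the wild-type 40 min profile, so the wild-type centre is high in part because that library placed them.

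Single late peaks covered a narrower range in *pol2-REL*. The centre ratios of the 108 late peaks ran from 0.896 to 1.19 in *pol2-REL* with a median of 1.01, and 65 were over 1, 3 over 1.1 and 2 under 0.9. In wild type they ran from 0.825 to 1.39 with a median of 1.03, and 30 were over 1.1 and 11 under 0.9. The shoulder was below the centre at 91 of 108 in *pol2-REL*, at 37 of them by over 3 counting errors, and at 105 in wild type, at 96 of them by over 3 counting errors. At the centre itself the *pol2-REL* ratio by quartile of wild-type prominence was 1.05, 1.03, 0.999 and 1.00, and the wild-type ratio was 1.13, 1.08, 1.01 and 1.02.

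The late peaks over 1 were in part different ones in the 2 genotypes. Of the 108, 40 were over 1 in both and 18 under 1 in both, while 25 were over 1 in *pol2-REL* only and 25 in wild type only. The late-to-early centre ratio was 0.899 in *pol2-REL* (0.897 to 0.902) and 0.924 in wild type (0.921 to 0.926). With landmarks placed by the *pol2-REL* libraries in place of the wild-type ones, a setting chosen after seeing the data, it was 0.934 and 0.921. Which genotype had the lower late-to-early ratio therefore depends on which libraries place the peaks.

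The 5 late peaks of largest wild-type prominence show the range. At chrII:539001-540000 *pol2-REL* held 13280 reads at 30 min and 13497 at 40 min, a ratio of 0.955 (0.932 to 0.978), against 1.16 in wild type. At chrIV:629001-630000 the counts were 12239 and 13056 and the ratio was 1.00, against 1.29 in wild type. At chrXV:657001-658000 they were 13027 and 13998 with a ratio of 1.01, against 1.18. In *pol2-REL* these 3 peaks stayed within 0.05 of the median window. Their wild-type shoulders stood at 1.06, 1.13 and 1.07 in the same order, below the centres. Their *pol2-REL* shoulders were also below the centres, at 0.943, 0.974 and 0.988, but with overlapping counting intervals. The other 2 were above 1 in both genotypes, with 1.07 and 1.11 at chrIV:1354001-1355000 (12419 and 14097 *pol2-REL* reads) and 1.09 and 1.15 at chrXIII:184001-185000 (6996 and 8084 reads in 3 windows). At the peak on chromosome XIII the shoulders stood above the centre in both genotypes, at 1.15 in *pol2-REL* and 1.31 in wild type.

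The late peaks at the ends of the *pol2-REL* range were chosen after their values were seen. The 3 over 1.1 in *pol2-REL* were chrVII:811001-812000 with 1.19 (5140 and 6491 reads in 3 windows), chrIV:211001-212000 with 1.12 (12205 and 14488 reads) and chrXIV:691001-692000 with 1.102 (14219 and 16676 reads). Wild type had 1.26, 0.982 and 1.00 at these peaks, so it was higher at the first and lower at the others. The 2 under 0.9 were chrIX:136001-137000 with 0.896 and chrII:144001-145000 with 0.899, and wild type was under 1 at both, with 0.943 and 0.959.

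Valleys, as placed by the wild-type libraries, were less depleted in *pol2-REL* than in wild type. Their 823 windows stood at 0.970 (0.968 to 0.972) in *pol2-REL* and at 0.916 (0.915 to 0.918) in wild type. In *pol2-REL* 15.8% of valley windows were under 0.9 and 7.41% over 1.1, against 7.81% and 20.6% of all windows, and in wild type 54.7% were under 0.9, against 26.4%. The valley-to-early-centre ratio was 0.866 in *pol2-REL* and 0.817 in wild type, and the valley-to-late-peak ratio was 0.963 and 0.885. At these landmarks late peaks and valleys thus lay closer together in the mutant than in wild type. The wild-type libraries placed both as high and low points, which can widen the gap in wild type but not in *pol2-REL*. The valley-to-late-peak ratio was not computed with landmarks from the *pol2-REL* libraries. A difference between genotypes can therefore not be told apart here from an effect of the placing.

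Single valleys ran from 0.820 to 1.36 in *pol2-REL* with a median of 0.952, and 21 of 168 were under 0.9 and 12 over 1.1. In wild type they ran from 0.728 to 1.60 with a median of 0.887, and 91 were under 0.9. The ratio was higher in *pol2-REL* at 110 of 168. Between early centres on both sides the median of 66 valleys was 0.947 in *pol2-REL* and 0.955 in wild type. It was 0.949 and 0.853 for 66 valleys between an early centre and a late peak, and 0.973 and 0.832 for 36 valleys between late peaks. The medians were thus closest in valleys between early centres and furthest apart in valleys between late peaks. Under 0.9 were 13 of 66 valleys between early centres in *pol2-REL* and 25 in wild type, and 3 of 36 between late peaks in *pol2-REL* and 28 in wild type. Over 1.1 were 11 of the 66 between early centres in *pol2-REL* and 17 in wild type.

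The 12 valleys over 1.1 in *pol2-REL* were mostly valleys between early origins, 11 of the 12, and 10 of them were also over 1.1 in wild type. The highest was chrXIII:275001-276000, 12 kb from the nearest peak, with 11145 reads at 30 min and 16162 at 40 min, a ratio of 1.36 (1.33 to 1.40) and 1.50 in wild type. Next came chrIII:52001-53000, chosen after its values were seen, with 13209 and 18364 reads, a ratio of 1.31 and 1.50 in wild type. On chromosome XII lay 3 of the 12. One of the valleys not over 1.1 in wild type was among them, chrXII:322001-323000, also chosen after its values were seen, with 10069 and 12404 reads, a ratio of 1.16 (1.13 to 1.19) and 0.820 in wild type.

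The 5 valleys farthest from any peak lie 37 to 44 kb from it. The *pol2-REL* ratio was 0.931 at chrXIV:368001-369000 (12379 and 12266 reads), 0.918 at chrXIII:334001-335000 (10983 and 10727 reads) and 0.925 at chrXIII:852001-853000 (12650 and 12450 reads). Wild type was lower at each, with 0.877, 0.845 and 0.800. At chrX:484001-485000 it was 0.997 in *pol2-REL* (6455 and 6847 reads in 3 windows) and 0.870 in wild type. At chrXII:564001-565000 it was 1.07 (1.04 to 1.09) in *pol2-REL* (10447 and 11842 reads) and 0.791 in wild type, and relative to the median of chromosome XII it was 0.996 and 0.771.

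**Figure D4:**
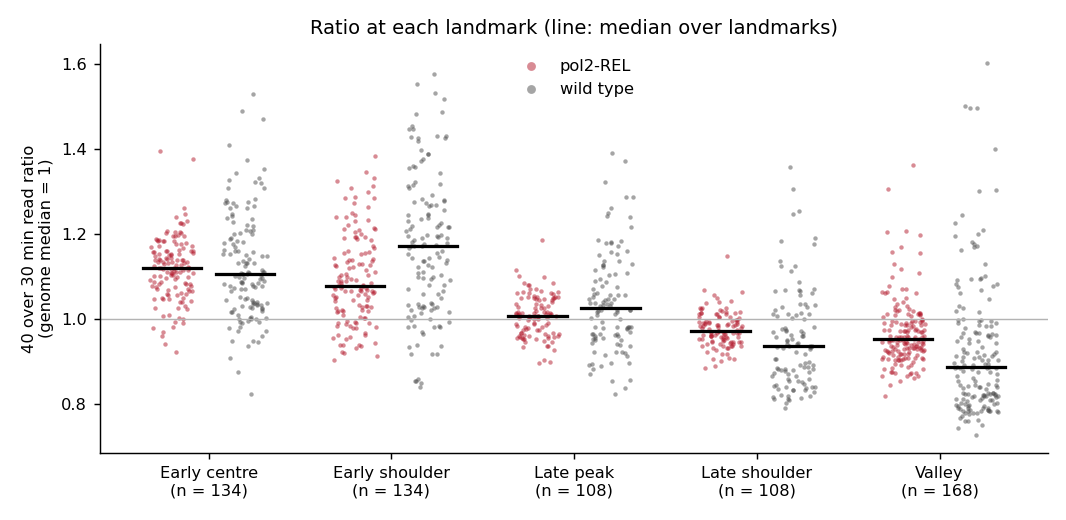
Scaled 40 over 30 min read ratio of each early centre and early shoulder (134), late peak and late shoulder (108) and valley (168) in *pol2-REL* (red) and wild type (grey); each point is 1 landmark and black lines are medians over landmarks. The *pol2-REL* points are more tightly grouped, with medians of 1.12 at early centres, 1.01 at late peaks and 0.952 in valleys, against 0.887 in wild-type valleys.

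Read without landmarks, the highest maxima of the smoothed *pol2-REL* ratio were all on the shoulders of early origins. They were chrXII:380001-381000 with 1.44 (11047 and 16917 reads), chrXII:519001-520000 with 1.41 (11797 and 17734 reads) and chrXII:407001-408000 with 1.39 (10928 and 16145 reads), then chrIII:65001-66000 with 1.38 and chrXIII:275001-276000 with 1.36. Wild type had 1.23, 1.16 and 1.19 at the 3 places on chromosome XII and more than the mutant, 1.55 and 1.50, at the other 2. Each lay 5 to 12 kb from an early centre. These places were picked by the ratio itself, and early shoulders hold 22.7% of the windows with both ratios. The early centres nearest to chrXII:519001-520000 and chrXII:407001-408000 stood at 1.40 and 1.38 in *pol2-REL*, above their whole shoulders at 1.35 and 1.32. A high point at 5 to 12 kb is thus not by itself a shoulder above the centre.

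The lowest minima lay far from early centres or beside a late peak. They were chrVI:231001-232000 with 0.800 (15874 and 13506 reads), chrXIII:65001-66000 with 0.825 (13081 and 11486 reads), chrXI:27001-28000 with 0.837 (16473 and 14680 reads), chrX:509001-510000 with 0.844 and chrIX:148001-149000 with 0.852. Wild type had 0.847, 0.802, 0.963, 0.927 and 0.827 there. All 5 were below 1 in both genotypes. They too were picked by the ratio itself. The far windows of early centres hold 24.3% of the windows with both ratios, and late shoulders hold 17.9%.

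The lists of high windows overlapped in part. Over the 11567 windows with both ratios, Spearman's rho was 0.559 and Pearson's r was 0.599 as a description, and neighbouring windows share forks. Of the 2380 windows over 1.1 in *pol2-REL*, 1804 were also over 1.1 in wild type, which is 75.8% of the *pol2-REL* list against 30.9% of all windows, and 50.5% of the wild-type list of 3573, against 20.6% of all windows. Of the windows over 1.1 in *pol2-REL* only, 30.7% were early centres and 24.3% early shoulders. Of those over 1.1 in wild type only, 6.50% were early centres and 35.0% early shoulders, where these classes hold 5.75% and 22.7% of all windows.

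Chromosome XII had the highest median window of the 16 chromosomes in *pol2-REL*, at 1.07, and chromosome III followed at 1.03. On chromosome XII 39.3% of windows were over 1.1 and 0.902% under 0.9. Chromosomes III and X came next in the share over 1.1, with 36.3% and 32.6%. The lowest medians were those of chromosome XI at 0.944 and chromosome VI at 0.963. In wild type chromosome XII was at 1.03, with 39.6% of windows over 1.1 and 25.7% under 0.9, chromosome III was highest at 1.22 and chromosome XIV lowest at 0.911. The depth of whole chromosomes also differed between libraries without replication: the median *pol2-REL* G1 over wild-type G1 ratio was 1.13 on chromosome XII, the highest, and 0.633 on chromosome I, the lowest. The part of such depth in the chromosome medians was not tested.

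Chromosome XII carries the rDNA, the tandem array of ribosomal RNA genes, which 2 windows with over 5 times the median G1 count represent. Within 100 kb of these windows the *pol2-REL* ratio was 1.27 over 165 windows (1.26 to 1.27), and over the rest of the chromosome it was 1.07. That stretch holds the prominent early centres at chrXII:412001-413000 and chrXII:513001-514000, with 1.38 and 1.40 in *pol2-REL*. Their part in its ratio was not tested. Wild type had 1.12 and 1.04. The rDNA windows themselves held 242731 reads at 30 min and 263073 at 40 min in *pol2-REL*, a ratio of 1.02 (1.01 to 1.02), and 214148 and 283973 in wild type, a ratio of 1.86. The DNA beside the array thus had the higher ratio in *pol2-REL* and the array itself the higher ratio in wild type, and a change in the number of repeats cannot be told apart from replication of the array by these counts.

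**Figure D5:**
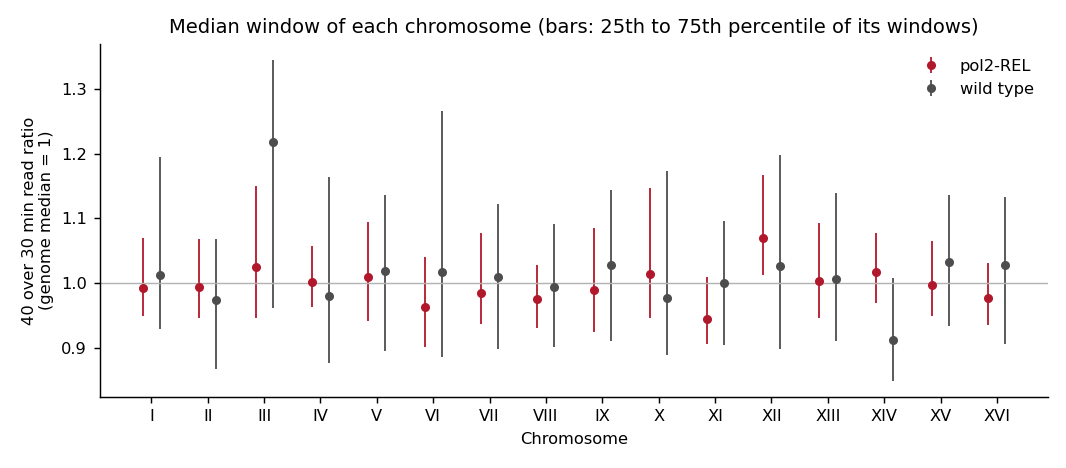
Median scaled 40 over 30 min read ratio of the windows of each of the 16 chromosomes in *pol2-REL* (red) and wild type (grey); bars run from the 25th to the 75th percentile of windows. Chromosome XII is highest in *pol2-REL* with 1.07 and chromosome III in wild type with 1.22, and the bars are longer in wild type.

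Windows within 20 kb of a chromosome end, which had no landmarks, stood at 1.02 in *pol2-REL* (1.021 to 1.026) and at 1.08 in wild type. In *pol2-REL* 25.9% of these 440 windows were over 1.1 and 11.8% under 0.9, both above the 20.6% and 7.81% of all windows. Ends thus held both high and low windows in the mutant.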

How the data were processed

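The authors sequenced genomic DNA and aligned the reads to sacCer2, the S288c genome. The deposited counts are raw reads in 1 kb windows, with no normalization. By the methods repeats were left out, but the 2 rDNA windows hold reads in these counts. The submitters' processing notes name cutadapt, BWA 0.7.8 and Picard 1.110, and the sources used here do not say whether duplicates were removed. The deposited S phase to G1 ratios were not used here. Of 24133 windows, which overlap, the 12070 that do not were used, and 0 columns of values lacked a sample.

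For landmarks, count ratios to G1 were scaled to a median of 1 and smoothed with a Gaussian of 2 kb SD. Class values are ratios of summed counts. The 2 rDNA windows were kept out of the classes, a choice made after seeing the data, as were the settings without chromosome XII and with landmarks from the *pol2-REL* libraries. Members, landmarks and lists were chosen with earlier results of these data known. Named loci were the 5 early centres and 5 late peaks of largest wild-type prominence, the 5 valleys farthest from a peak, the 3 most prominent isolated early centres, and the 5 highest and 5 lowest points of the *pol2-REL* ratio; any other is said to be chosen after its values were seen or is the end of a stated range. Alternatives changed the scaling, count filter, window offset, smoothing, G1 library, chromosome ends and averaging. Landmarks and class ratios were tested on simulated data. Computations ran in Python 3.11.15 with SciPy 1.17.1, pandas 2.3.3, numpy 2.4.6 and matplotlib 3.10.9. No genome of this build was used, so genes and origin names are not given.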

Additional observations from a re-analysis of the deposited data

Results flagged for a closer look

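Each of these values lay on opposite sides of 1 in the 2 genotypes, and with 1 library per condition none of the differences was tested. The early shoulder-to-centre ratio was 0.975 in *pol2-REL* and 1.03 in wild type. The late peak at chrII:539001-540000 was at 0.955 in *pol2-REL* and 1.16 in wild type, and relative to its chromosome's median at 0.960 and 1.19. The valley at chrXII:564001-565000 was at 1.07 and 0.791, and relative to its chromosome's median both were below 1, at 0.996 and 0.771. The isolated early centre at chrXIV:321001-322000 was at 1.15 and 0.962, and relative to its chromosome's median both were above 1, at 1.13 and 1.06. Of the chromosome medians, those of IV, X and XIV were above 1 in *pol2-REL* and below it in wild type, with 1.00 and 0.980, 1.01 and 0.976, and 1.02 and 0.911. Those of I, VI, VII, IX, XI, XV and XVI were at 0.993, 0.963, 0.984, 0.989, 0.944, 0.997 and 0.976 in *pol2-REL*, and at 1.01, 1.02, 1.01, 1.03, 1.00, 1.03 and 1.03 in wild type.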

How the results depend on the processing

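Of 61 values under alternatives, 25 stayed within the counting interval of the value reported, 30 lay outside it and 0 crossed 1, and the other 6, for the share of *pol2-REL* windows over 1.1, stayed within 1.5 times. The *pol2-REL* early centre level was 1.098 with counts scaled by total reads, 1.13 with landmark smoothing of 4 kb SD (108 early centres), 1.11 with the *pol2-REL* G1 library for the landmarks and 1.12 with landmarks from the *pol2-REL* libraries. The shoulder-to-centre ratio under these last 3 settings was 0.985, 0.972 and 0.995 in *pol2-REL* and 1.05, 1.02 and 1.06 in wild type; it was 0.963 and 1.06 as a median over landmarks and 1.04 in wild type with offset windows. The late-to-early ratio in *pol2-REL* and wild type was 0.903 and 0.936 with chromosome medians, 0.902 and 0.931 with offset windows, 0.911 and 0.943 with 4 kb SD, 0.904 and 0.929 without chromosome XII, and 0.934 and 0.921 with landmarks from the *pol2-REL* libraries, which turns the order of the genotypes. It was 0.907 in *pol2-REL* with its G1 library, and in wild type 0.927 without windows within 30 kb of an end and 0.928 as a median over landmarks. The *pol2-REL* valley-to-early ratio was 0.859 with 4 kb SD, 0.873 with its G1 library, 0.850 as a median over landmarks and 0.850 with landmarks from its libraries. The cause of these shifts was not tested. No paired analysis was possible because there is 1 library per condition and the labels give no replicate numbers. Counting error is small at this depth; the difference between cultures was not measured.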
